A study of Mus musculus with 12 samples.

Results

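The genes described here are 54 mouse genes of mitosis: the cyclins and kinases that drive cells into division, the spindle and its motors, the kinetochore, the checkpoint that watches it, and the machinery of cytokinesis. They form a named list that was chosen with earlier results of these data known, so counts of its members are descriptions. All 54 were measured among 12643 genes in 12 RNA-seq libraries of MIN6 cells, an insulin-producing line from a mouse insulinoma. Cells at passage 29 had been nucleofected with an siRNA against Pdx1, the homeodomain factor of beta cells, or with a control siRNA named NT, and were collected 72 h later. The 4 groups of 3 libraries were Pdx1 siRNA total RNA, NT total RNA, Pdx1 siRNA IP RNA and NT IP RNA, where IP RNA is the RNA recovered with affinity-purified ribosomes by the TRAP method. All groups are a single tumour cell line, and the labels name neither the ribosomal protein tagged nor separate cultures for the replicates. The p-values therefore reflect library-to-library spread alone, part or all of which could be technical.

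Entry into mitosis is set by cyclin B bound to the kinase Cdk1, which the phosphatase Cdc25c activates, and the transcription factor Foxm1 drives many of the genes involved. Chromosomes then attach to spindle microtubules through kinetochores built on the centromeric histone Cenpa. The spindle checkpoint holds back the anaphase promoting complex until every kinetochore is attached, and this ubiquitin ligase then destroys cyclin B and securin to release the sister chromatids. Most of these genes are transcribed chiefly in late cell cycle phases, so their mRNA is low in resting cells. Many share promoter elements of that late programme, an element known as the CHR, which binds the DREAM and MuvB complexes, and CCAAT boxes, which bind the factor NF-Y.

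Promoter windows from RefSeq (build GRCm38.p6, from 250 bases before to 50 bases after an annotated start) were found for 46 of the 54 genes, in 49 windows. Those of 7 genes are shown because the members fell together, and the windows can be read for the elements named above, which not all of them hold. Gene coordinates in the text are on the same build. The first 5 belong to the members with the lowest log2 fold changes in total RNA. Ccnb2, with evenly spaced CCAAT boxes, and Bub3, which fell little, were added after their values were seen. Capitals mark CCAAT on either strand and the CHR forms on either strand, which are TTTGAA, or CTTGAA, or TTTAAA, or TTCGAA. Positions are counted from the annotated start, whose first base is 1.
Troap (chr15:99074723-99075022, plus strand): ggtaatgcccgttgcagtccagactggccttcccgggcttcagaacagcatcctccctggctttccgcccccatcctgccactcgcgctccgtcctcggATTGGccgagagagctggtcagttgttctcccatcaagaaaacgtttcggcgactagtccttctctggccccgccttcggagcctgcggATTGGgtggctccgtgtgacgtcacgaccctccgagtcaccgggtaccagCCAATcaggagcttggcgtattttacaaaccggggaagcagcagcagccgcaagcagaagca
Cdkn3 (chr14:46760291-46760590, plus strand): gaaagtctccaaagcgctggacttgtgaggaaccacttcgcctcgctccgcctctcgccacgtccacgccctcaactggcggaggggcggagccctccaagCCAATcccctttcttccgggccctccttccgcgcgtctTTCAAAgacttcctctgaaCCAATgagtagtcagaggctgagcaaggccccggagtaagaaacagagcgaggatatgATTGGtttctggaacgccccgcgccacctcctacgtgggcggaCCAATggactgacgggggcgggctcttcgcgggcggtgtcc
Kif2c (chr4:117178723-117179022, minus strand): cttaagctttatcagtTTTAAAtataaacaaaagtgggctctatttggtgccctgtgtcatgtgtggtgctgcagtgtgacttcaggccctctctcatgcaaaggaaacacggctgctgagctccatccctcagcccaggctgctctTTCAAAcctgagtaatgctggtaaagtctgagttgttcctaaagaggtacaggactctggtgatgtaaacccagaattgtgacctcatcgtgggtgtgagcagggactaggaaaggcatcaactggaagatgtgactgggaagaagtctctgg
Sapcd2 (chr2:25371785-25372084, plus strand): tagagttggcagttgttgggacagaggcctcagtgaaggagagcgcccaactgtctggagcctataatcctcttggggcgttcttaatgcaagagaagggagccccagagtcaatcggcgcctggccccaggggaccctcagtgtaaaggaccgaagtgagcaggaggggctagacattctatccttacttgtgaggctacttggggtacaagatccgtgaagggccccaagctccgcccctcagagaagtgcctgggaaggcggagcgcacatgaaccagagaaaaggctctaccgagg
Cenpa (chr5:30666636-30666935, plus strand): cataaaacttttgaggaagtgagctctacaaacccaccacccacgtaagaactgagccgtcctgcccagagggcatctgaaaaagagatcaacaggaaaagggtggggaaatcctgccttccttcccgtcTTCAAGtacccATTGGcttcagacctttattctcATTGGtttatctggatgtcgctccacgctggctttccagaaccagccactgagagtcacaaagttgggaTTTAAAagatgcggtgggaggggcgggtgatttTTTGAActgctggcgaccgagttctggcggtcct
Ccnb2 (chr9:70421505-70421804, minus strand): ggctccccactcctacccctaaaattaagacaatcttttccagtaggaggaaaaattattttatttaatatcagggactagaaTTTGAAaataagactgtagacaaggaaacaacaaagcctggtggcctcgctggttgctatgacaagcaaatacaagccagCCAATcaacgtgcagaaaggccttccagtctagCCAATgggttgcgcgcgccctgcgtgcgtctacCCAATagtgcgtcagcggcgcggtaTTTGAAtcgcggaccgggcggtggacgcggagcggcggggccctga
Bub3 (chr7:131560120-131560419, plus strand): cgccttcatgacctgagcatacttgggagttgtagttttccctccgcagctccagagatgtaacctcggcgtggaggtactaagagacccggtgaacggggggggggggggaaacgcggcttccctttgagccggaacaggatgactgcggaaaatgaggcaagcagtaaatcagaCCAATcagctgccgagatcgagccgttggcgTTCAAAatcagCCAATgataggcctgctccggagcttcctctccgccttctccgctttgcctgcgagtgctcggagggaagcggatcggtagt

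The Ccnb2 window held 3 CCAAT boxes whose first bases lie 33 bases apart, at -87, -54 and -21 from the annotated start, and a TTTGAA element at 5. Cdkn3 held 4 CCAAT boxes and Troap 3, while Troap held no CHR form and Sapcd2 held neither element. The Kif2c window starts at an annotated start inside the gene (chr4:117159633-117182624) and held 2 CHR forms and no CCAAT. A CHR form stood in the windows of 40 of the 46 members (87.0%), against 31.3% of the 10081 tested genes that have a window. TTTGAA alone was found for 73.9% of members and 13.8% of all tested genes. Within the last 100 bases of the window, a CHR form was found for 76.1% of members and 9.0% of tested genes. CCAAT was found for 73.9% of members and 43.6% of all tested genes, and 2 or more CCAAT for 52.2% and 17.1%. A spacing of 30 to 36 bases between neighbouring CCAAT boxes occurred in 17.4% of members and 3.4% of tested genes. The E2F forms TTTCCCGC and TTTGGCGC, searched on both strands, were found for 1 member (2.2%) and 3.5% of tested genes. CHR forms did not overlap each other, and overlapped a CCAAT in 1 member window. The median GC content was 58.7% in the member windows and 61.0% in all windows of tested genes. Matches are letters in a window, not measured binding.

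The 6 members with no CHR form in their windows (Cenpi, Mad2l1, Nuf2, Nusap1, Sapcd2 and Troap) had a median log2 fold change of −1.75 in total RNA and −2.34 in IP RNA, against −1.81 and −2.26 for the 40 with one, so the order differed between the fractions. In total RNA the medians were −1.89 for the 24 members with 2 or more CCAAT, −1.83 for the 10 with 1 and −1.72 for the 12 with none. In IP RNA they were −2.28, −2.27 and −2.28 in the same order. Bub3 holds a CHR form and 2 CCAAT boxes in the window printed above and was among the least changed members. Pttg1, the least changed of all, has a window, not printed here, with 1 CHR form (CTTGAA at 2) and no CCAAT. These are descriptions of the listed genes, and no test was made between them.

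Libraries held 29430690 to 45806807 counts over all genes, and the median member had 184 to 1959.5 counts in a library. The beta-cell markers chosen as a check were all measured (12 of 12), with Ins2 at 62437 CPM (counts scaled to a common library size, with TMM factors) in NT total RNA. None of the 14 markers of exocrine, duct, fibroblast, endothelial or blood cells has a row in the files, and the files list no transcript with under 141 counts in all. Pdx1 itself averaged 50.99 ± 5.54 CPM in Pdx1 siRNA total RNA and 117 ± 6.89 CPM in NT total RNA, and 45.5 ± 5.84 CPM in Pdx1 siRNA IP RNA and 110.0 ± 5.85 CPM in NT IP RNA (SD, n = 3 each), at −1.20 and −1.27 on the log2 scale. NT IP replicates 1 and 2 seemed to differ from the other 4 IP libraries in their counts of genes that have highly similar copies at other loci. This division is termed the copy split. It was inferred from the counts, no label records it, and its source was not tested. NT IP replicate 3 differed from the mean of NT IP replicates 1 and 2 by more than 2-fold at 0 of the 54 members and at 171 of all 12643 genes. The largest member difference was at Ccnb1, −0.61 on the log2 scale, while Cdc20, which also has a copy elsewhere, was at −0.135.

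All 54 genes fell after Pdx1 depletion, in total RNA and in IP RNA. In total RNA the median member was at −1.82 on the log2 scale, 3.53-fold lower, with 28.3% of the NT level left. The quasi-likelihood F-test of edgeR, with p-values adjusted by Benjamini-Hochberg over all 12643 genes, called 54 of 54 lower and 0 higher, where 29.2% of all genes were called lower and 23.8% higher. The fall was 2-fold or more at 52 of 54, against 3.63% of all genes. Of the 177 genes in the whole table with a log2 fold change of −1.5 or lower, 49 are among these 54. Every Pdx1 siRNA total library lay below every NT total library at each of the 54 genes, which was so for 32.6% of all genes. The median over all genes was −0.04.

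In IP RNA the median member was at −2.26, 4.80-fold lower, with 20.8% of the NT level left. All 54 were called lower and 0 higher (30.4% and 29.2% of all genes), 52 of them by 2-fold or more (5.19% of all genes). Of the 357 genes in the whole table at −1.5 or lower in IP RNA, 51 are among these 54. The groups did not overlap at any of the 54 (32.6% of all genes lay wholly below NT). With the copy split as a term, and among the 4 IP libraries on the same side of it, the median member was at −2.28 in each. Both fits compare Pdx1 siRNA IP RNA with NT IP replicate 3 alone, and are not separate checks. The spread of that library is assumed to be that of the others.

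The unscaled shares of counts show the same fall. The 54 genes together took 0.117%, 0.104% and 0.0841% of the counts in Pdx1 siRNA total RNA, against 0.369%, 0.375% and 0.371% in NT total RNA. In IP RNA they took 0.0700%, 0.0743% and 0.0551% with Pdx1 siRNA and 0.307%, 0.308% and 0.297% with NT. Summed, their level was 1001 ± 108 CPM in Pdx1 siRNA total RNA and 3035 ± 31.9 CPM in NT total RNA, and 818 ± 74.5 CPM in Pdx1 siRNA IP RNA and 3035 ± 17.4 CPM in NT IP RNA (SD, n = 3 each). Spc25, which fell less than most members, alone made up 190, 380, 235 and 494 CPM of these sums, in the same order. In these bulk samples fewer dividing cells and less mitotic RNA in each dividing cell cannot be told apart.

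**Figure D1:**
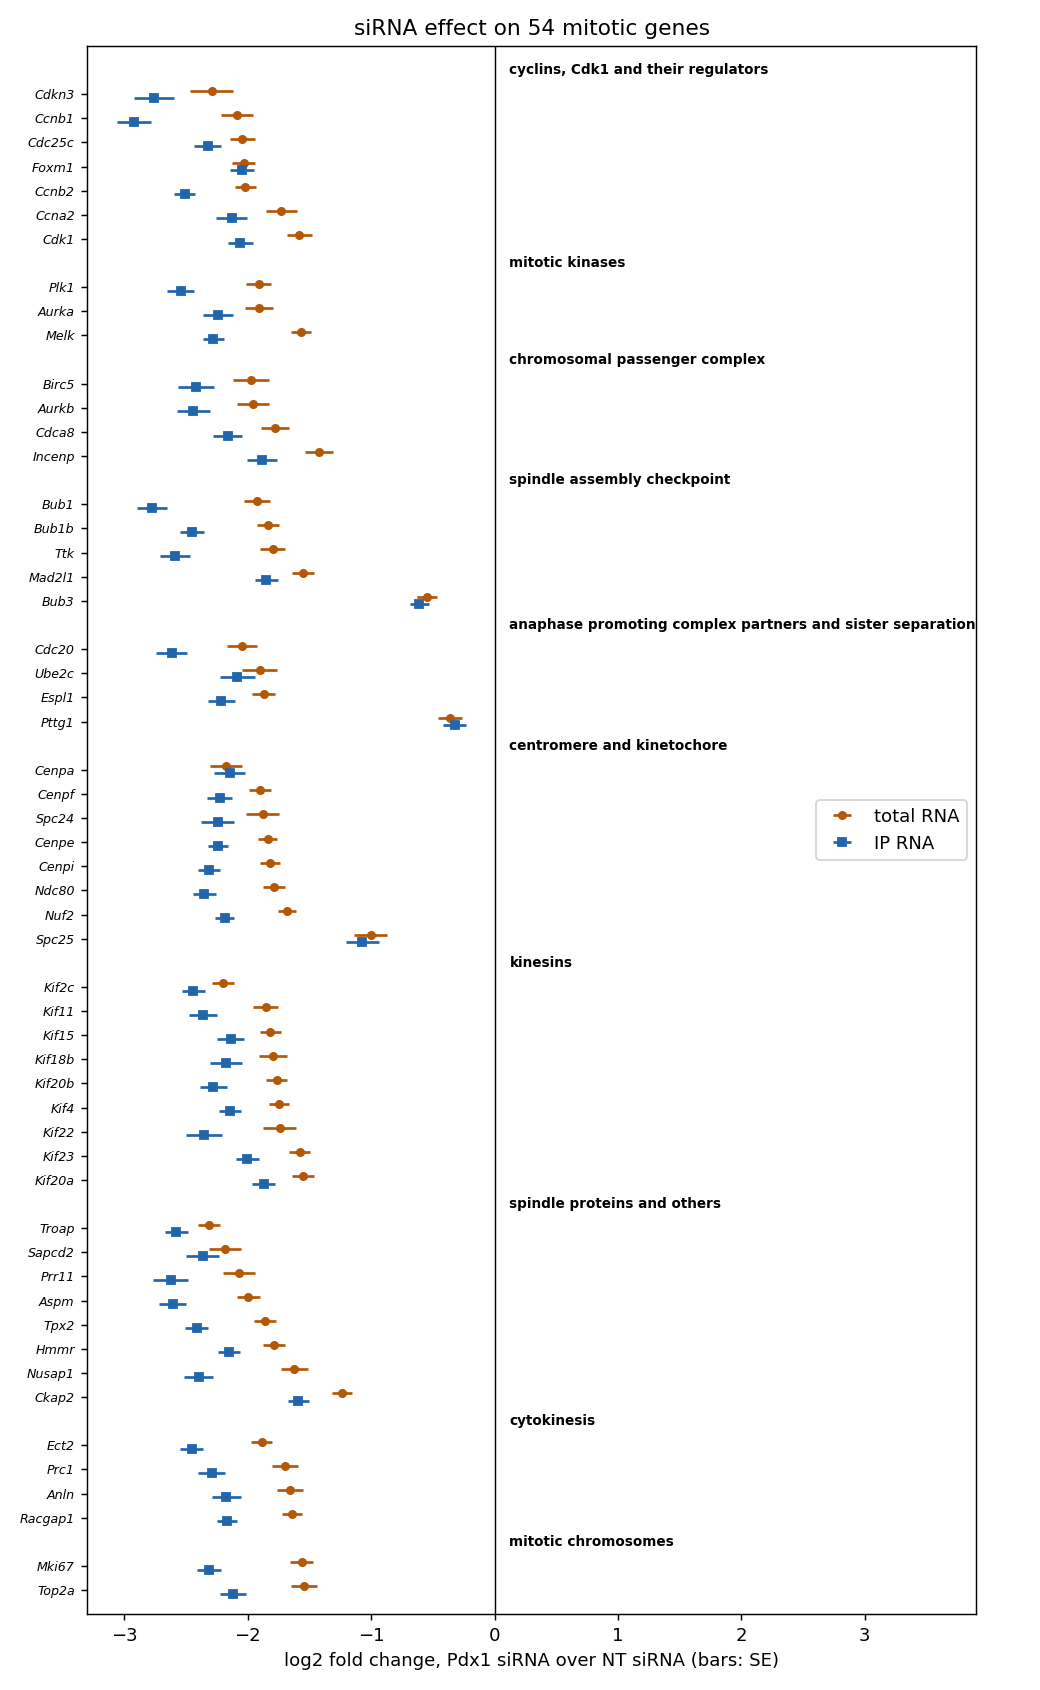
Log2 fold change of each of the 54 genes, Pdx1 siRNA over NT siRNA, in total RNA (circles) and IP RNA (squares), with bars of the SE, grouped by role and sorted within a role by the value in total RNA. Every point lies left of 0, most total RNA points lie between −2.32 and −1.5, and Pttg1, Bub3 and Spc25 stand to the right of the others in both fractions.

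The 7 cyclins, Cdk1 and their regulators had a median of −2.03 in total RNA and −2.33 in IP RNA. Ccnb2 (chr9:70407689-70421554), encoding cyclin B2, had 14.7, 13.4 and 12.1 CPM in Pdx1 siRNA total RNA, against 56.6, 53.8 and 52.7 CPM in NT total RNA. It had 15.6, 13.2 and 13.6 CPM in Pdx1 siRNA IP RNA and 79.6, 82.6 and 78.7 CPM in NT IP RNA. These are falls of 4.06-fold (adjusted p = 8.27e-11, −2.02 with an SE of 0.08 on the log2 scale) and 5.71-fold (−2.51, SE 0.08), and the groups lay far apart. Ccnb1 (chr13:100778739-100786486), the main mitotic cyclin, had 14.6, 13.7 and 12.7 CPM in Pdx1 siRNA total RNA, against 58.1, 58.01 and 58.3 CPM in NT total RNA. In IP RNA its NT libraries stood apart from each other: it had 7.05, 6.56 and 6.62 CPM in Pdx1 siRNA IP RNA and 58.5, 56.8 and 37.8 CPM in NT IP RNA. The low NT library is replicate 3, and 51.9% of the Ccnb1 transcript matches copies elsewhere, Ccnb1-ps among them, so its counts are uncertain. Ccnb1 was at −2.92 in IP RNA over all libraries, the lowest of the 54, and at −2.496 among the IP libraries on the same side of the copy split. Foxm1 (chr6:128362994-128375886) had 17.8, 15.8 and 14.2 CPM in Pdx1 siRNA total RNA, against 66.9, 64.3 and 64.9 CPM in NT total RNA. It had 15.2, 12.95 and 11.6 CPM in Pdx1 siRNA IP RNA and 53.1, 52.8 and 57.2 CPM in NT IP RNA. Its log2 fold changes of −2.03 and −2.04 (SE 0.10 and 0.10) differed little between the fractions. The phosphatase gene Cdkn3 was at −2.29 (SE 0.17) in total RNA, where it averaged 2.56 ± 0.934 CPM with Pdx1 siRNA and 12.3 ± 1.68 CPM with NT (SD, n = 3 each). The activating phosphatase gene Cdc25c was at −2.04, the S-phase and mitotic cyclin gene Ccna2 at −1.73 and Cdk1 at −1.58. Of the Ccna2 exon sequence, 17.2% overlaps Exosc9 on the opposite strand.

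The mitotic kinases fell with medians of −1.91 in total RNA and −2.28 in IP RNA. Melk (chr4:44300909-44364675), encoding a kinase of proliferating cells, had 9.48, 8.70 and 8.22 CPM in Pdx1 siRNA total RNA, against 25.9, 26.4 and 25.95 CPM in NT total RNA. It had 6.21, 5.01 and 5.05 CPM in Pdx1 siRNA IP RNA and 25.9, 26.6 and 25.9 CPM in NT IP RNA. The NT levels of Melk were close in both fractions, while Pdx1 siRNA IP RNA lay wholly below Pdx1 siRNA total RNA; the siRNA effect was −1.57 in total RNA and −2.28 in IP RNA. Plk1 (chr7:122159435-122169884), the polo-like kinase of spindle assembly and mitotic exit, had 12.3, 13.6 and 11.8 CPM in Pdx1 siRNA total RNA, against 47.2, 50.4 and 44.3 CPM in NT total RNA. It had 8.68, 6.64 and 6.12 CPM in Pdx1 siRNA IP RNA and 40.2, 43.3 and 40.1 CPM in NT IP RNA. It fell 3.76-fold and 5.82-fold (adjusted p = 8.68e-10 and 6.39e-11, edgeR). Aurka, encoding the centrosomal Aurora A kinase, was at −1.91 and −2.24.

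All 4 genes of the chromosomal passenger complex, which corrects faulty attachments, fell, with medians of −1.87 and −2.29 in total and IP RNA. Cdca8 (chr4:124918465-124936917), encoding borealin, had 11.2, 10.8 and 8.69 CPM in Pdx1 siRNA total RNA, against 36.8, 35.9 and 32.7 CPM in NT total RNA. It had 10.9, 10.9 and 7.92 CPM in Pdx1 siRNA IP RNA and 43.04, 43.5 and 46.5 CPM in NT IP RNA. Aurkb (chr11:69045624-69051664), the kinase of the complex, had 6.90, 7.32 and 5.74 CPM in Pdx1 siRNA total RNA, against 26.5, 26.7 and 24.5 CPM in NT total RNA. It had 5.08, 5.65 and 3.31 CPM in Pdx1 siRNA IP RNA and 25.4, 25.02 and 25.5 CPM in NT IP RNA. At both, each Pdx1 siRNA library lay below each NT library, and in IP RNA Pdx1 siRNA replicate 3 was the lowest for each. Birc5, encoding survivin, was at −1.98 and −2.42, and the scaffold gene Incenp at −1.42 and −1.88, the smallest fall of the 4 in both fractions.

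The spindle checkpoint genes split in size. Bub1b (chr2:118598202-118641592), encoding BubR1, had 6.87, 7.92 and 6.84 CPM in Pdx1 siRNA total RNA, against 24.9, 27.1 and 25.5 CPM in NT total RNA. It had 3.94, 3.40 and 3.02 CPM in Pdx1 siRNA IP RNA and 18.8, 19.5 and 18.002 CPM in NT IP RNA. Bub1 (chr2:127800197-127831859), the kinetochore kinase that recruits the other checkpoint proteins, had 7.39, 8.70 and 7.45 CPM in Pdx1 siRNA total RNA, against 27.3, 33.1 and 29.2 CPM in NT total RNA. It had 3.15, 4.01 and 2.76 CPM in Pdx1 siRNA IP RNA and 23.2, 21.8 and 23.5 CPM in NT IP RNA, which is 6.87-fold lower (adjusted p = 7.63e-11, −2.78 with an SE of 0.12 on the log2 scale, edgeR). Ttk, encoding the kinase Mps1 at the top of the checkpoint, was at −1.80 and −2.59, and Mad2l1, encoding the Cdc20 inhibitor Mad2, at −1.55 and −1.85, with 26.3% of its transcript matching copies elsewhere. Bub3 (chr7:131560367-131571895), the adaptor that carries Bub1 and BubR1 to kinetochores, fell least of the 5. It had 46.7, 50.98 and 42.4 CPM in Pdx1 siRNA total RNA, against 68.1, 70.9 and 65.8 CPM in NT total RNA. It had 61.5, 59.3 and 53.7 CPM in Pdx1 siRNA IP RNA and 86.5, 92.9 and 86.7 CPM in NT IP RNA. The groups still did not overlap, and its fall was 1.46-fold in total RNA (adjusted p = 3.79e-05, edgeR).

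Cdc20 (chr4:118432901-118437343), the activator of the anaphase promoting complex that the checkpoint blocks, had 14.8, 17.1 and 12.2 CPM in Pdx1 siRNA total RNA, against 62.6, 63.3 and 56.2 CPM in NT total RNA. It had 14.1, 11.3 and 10.2 CPM in Pdx1 siRNA IP RNA and 70.96, 78.3 and 67.9 CPM in NT IP RNA. A copy, Gm7856, matches 83.5% of its transcript; among the IP libraries on the same side of the copy split its value was −2.53, against −2.62. Espl1 (chr15:102296254-102324357), encoding separase, the protease that opens the cohesin ring, had 9.91, 10.6 and 9.93 CPM in Pdx1 siRNA total RNA, against 34.9, 41.2 and 35.2 CPM in NT total RNA. It had 4.28, 3.21 and 3.54 CPM in Pdx1 siRNA IP RNA and 15.5, 17.7 and 17.4 CPM in NT IP RNA. The ubiquitin-conjugating enzyme gene Ube2c was at −1.90 and −2.08. Pttg1 (chr11:43420244-43427463), encoding securin, the inhibitor of separase, fell least of all 54 genes. It had 6.08, 5.17 and 5.19 CPM in Pdx1 siRNA total RNA, against 7.19, 7.15 and 6.72 CPM in NT total RNA. It had 8.98, 8.83 and 9.20 CPM in Pdx1 siRNA IP RNA and 10.2, 11.2 and 12.5 CPM in NT IP RNA. Its libraries were separated in both fractions by small gaps, with falls of 1.28-fold (adjusted p = 0.00508) and 1.25-fold (adjusted p = 0.00638, edgeR).

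**Figure D2:**
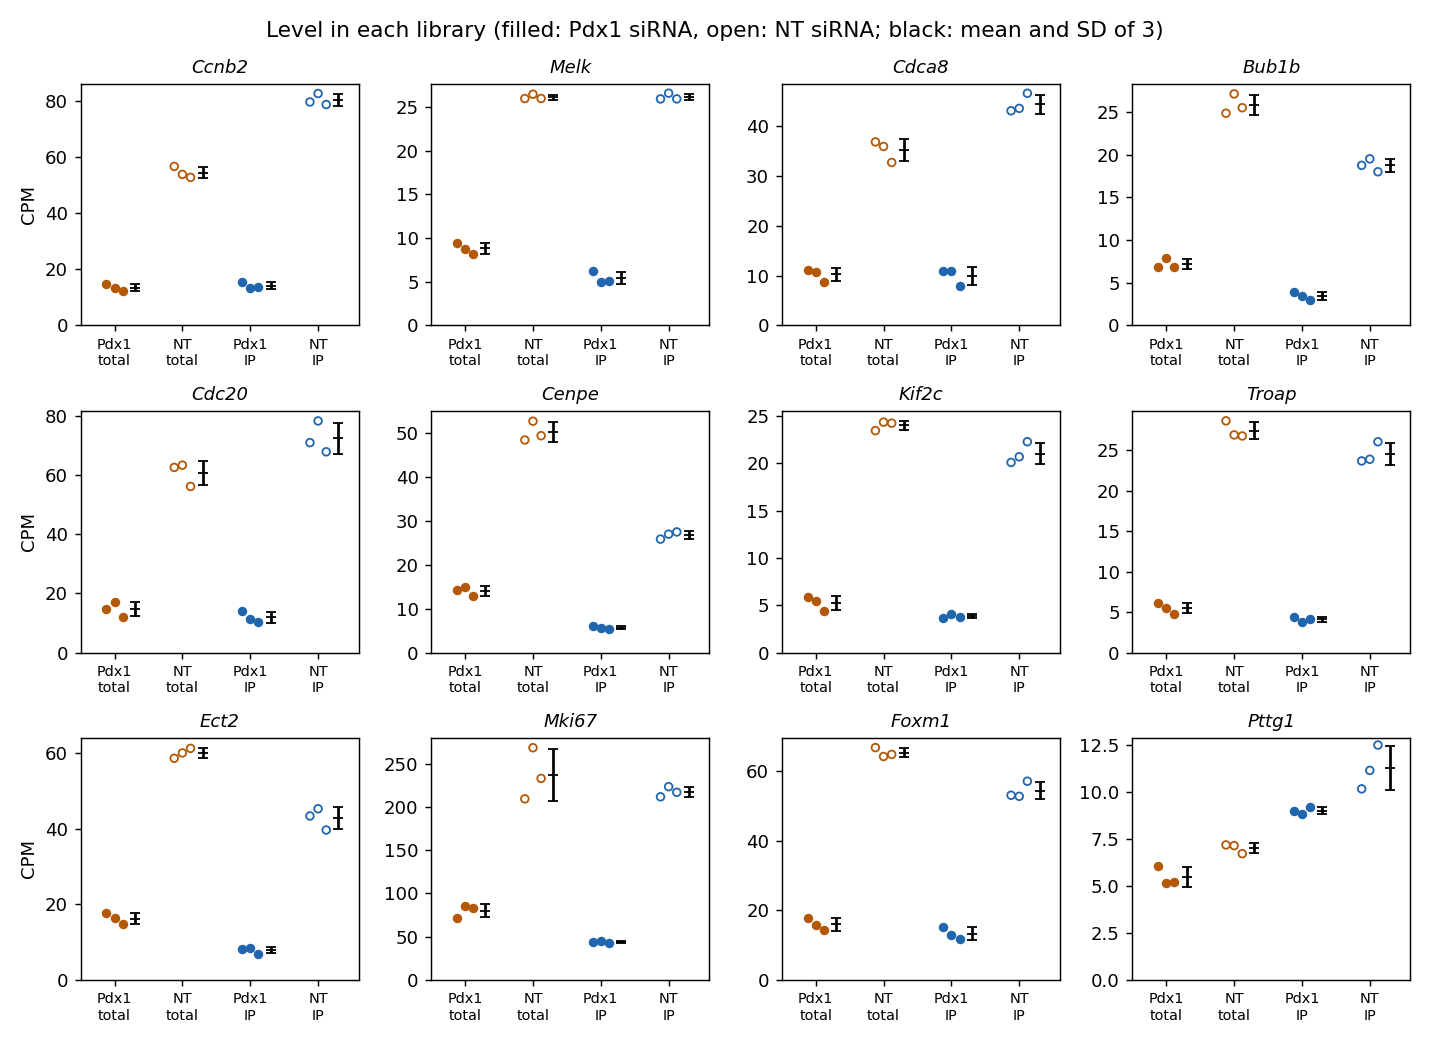
CPM in each library for 12 of the genes, from left to right Pdx1 siRNA total, NT total, Pdx1 siRNA IP and NT IP RNA. Filled points are Pdx1 siRNA libraries, open points NT libraries, and black marks give the mean and SD of 3 libraries; the filled points lie below the open points of the same fraction in every panel, with the narrowest gaps at Pttg1.

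The 8 centromere and kinetochore genes had medians of −1.83 in total RNA and −2.23 in IP RNA. Cenpe (chr3:135212563-135273540), a kinesin that moves chromosomes to the spindle equator, had 14.2, 15.1 and 12.8 CPM in Pdx1 siRNA total RNA, against 48.5, 52.8 and 49.5 CPM in NT total RNA. It had 6.08, 5.59 and 5.40 CPM in Pdx1 siRNA IP RNA and 25.9, 27.01 and 27.5 CPM in NT IP RNA. Ndc80 (chr17:71496100-71526857), the microtubule-binding subunit of the outer kinetochore, had 8.53, 7.71 and 8.19 CPM in Pdx1 siRNA total RNA, against 29.4, 26.6 and 28.4 CPM in NT total RNA. It had 7.43, 6.09 and 5.54 CPM in Pdx1 siRNA IP RNA and 33.3, 30.6 and 32.5 CPM in NT IP RNA. At both, each Pdx1 siRNA library lay below each NT library, while in IP RNA relative to total RNA they went opposite ways in NT cells: Cenpe was lower in IP RNA (−0.91) and Ndc80 higher (0.19, adjusted p = 0.0469, edgeR). Cenpa averaged 10.3 ± 2.08 CPM in Pdx1 siRNA total RNA and 46.8 ± 4.13 CPM in NT total RNA, a change of −2.18, and was at −2.15 in IP RNA. Cenpf, a large protein of the corona of the kinetochore, was at −1.90 and −2.23, and Cenpi at −1.82 and −2.31.

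Of the 4 subunits of the Ndc80 complex, Spc25 fell less than the others. Whether the Spc25 counts hold reads of a neighbouring gene was not tested. Nuf2 was at −1.68 in total RNA and −2.19 in IP RNA, Spc24 at −1.88 and −2.25, and Spc25 (chr2:69193895-69206213) at −1.005 (SE 0.14) and −1.07. Spc25 had 239, 171 and 158 CPM in Pdx1 siRNA total RNA, against 415, 336 and 390.1 CPM in NT total RNA. It had 235, 263 and 208 CPM in Pdx1 siRNA IP RNA and 510.0, 469 and 504 CPM in NT IP RNA. Its libraries did not overlap between siRNAs. Per kb of transcript, Spc25 had 249.1 CPM in NT total RNA, against 12.8 for Ndc80, 21.5 for Nuf2 and 15.1 for Spc24, and it was the highest of the 54 genes on this scale in all 4 groups.

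All 9 kinesin genes fell, with medians of −1.77 and −2.18 and a range from −2.20 to −1.55 in total RNA. Kif2c (chr4:117159633-117182624), the microtubule depolymerase MCAK that frees wrongly attached kinetochores, had 5.83, 5.40 and 4.44 CPM in Pdx1 siRNA total RNA, against 23.4, 24.3 and 24.2 CPM in NT total RNA. It had 3.69, 4.07 and 3.80 CPM in Pdx1 siRNA IP RNA and 20.1, 20.7 and 22.3 CPM in NT IP RNA. Its 4.60-fold and 5.43-fold falls were the largest of the kinesins in both fractions. Kif11, the bipolar motor Eg5 that pushes spindle poles apart, was at −1.86 and −2.36, the central spindle motor gene Kif23 at −1.58 and −2.003, and the chromokinesin gene Kif22 at −1.74 and −2.36. Kif20a was at −1.55 and −1.87; 26.4% of its exon sequence overlaps Cdc23 on the opposite strand, whose reads cannot be told apart without strand.

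Spindle-associated proteins held the largest single fall in total RNA. Troap (chr15:99074973-99083409), encoding a protein of spindle microtubules first named trophinin-associated, had 6.17, 5.56 and 4.83 CPM in Pdx1 siRNA total RNA, against 28.7, 26.9 and 26.8 CPM in NT total RNA. It had 4.40, 3.82 and 4.15 CPM in Pdx1 siRNA IP RNA and 23.7, 23.9 and 26.1 CPM in NT IP RNA. Its 4.98-fold fall (adjusted p = 3.62e-11, −2.32 with an SE of 0.09 on the log2 scale, edgeR) had the lowest log2 fold change of the 54 in total RNA. Prr11 (chr11:87089156-87108714), a cell cycle protein gene, had 9.51, 6.67 and 6.04 CPM in Pdx1 siRNA total RNA, against 30.3, 28.97 and 33.7 CPM in NT total RNA. It had 4.03, 4.15 and 3.22 CPM in Pdx1 siRNA IP RNA and 23.3, 23.9 and 22.9 CPM in NT IP RNA. Pdx1 siRNA total replicate 1 was the highest of its group at Prr11, and still far below its NT libraries. Tpx2, the activator of Aurora A on the spindle, was at −1.86 and −2.41, Aspm, a spindle pole protein, at −1.998 and −2.61, and Nusap1 at −1.62 and −2.40. Sapcd2 was at −2.19 and −2.36, Hmmr at −1.79 and −2.15, and the cytoskeleton-associated gene Ckap2, with the smallest fall here, at −1.24 and −1.59.

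The cytokinesis genes were close to each other, from −1.89 to −1.64 in total RNA and −2.46 to −2.17 in IP RNA. Ect2 (chr3:27097222-27154253), the exchange factor that activates RhoA at the cleavage furrow, had 17.6, 16.3 and 14.8 CPM in Pdx1 siRNA total RNA, against 58.6, 60.01 and 61.2 CPM in NT total RNA. It had 8.22, 8.30 and 6.88 CPM in Pdx1 siRNA IP RNA and 43.3, 45.2 and 39.6 CPM in NT IP RNA. It was the lowest of the 4 in both fractions, followed by the bundling protein gene Prc1 (−1.70 and −2.29; 26.9% of its exon sequence overlaps Rccd1), the scaffold gene Anln (−1.66 and −2.17) and Racgap1 (−1.64 and −2.17), the partner of Kif23 in centralspindlin. Of the mitotic chromosome genes, Mki67 (chr7:135689784-135716450), whose product coats mitotic chromosomes and is the common marker of proliferation, had 71.2, 85.5 and 83.7 CPM in Pdx1 siRNA total RNA, against 209, 269 and 233 CPM in NT total RNA. It had 43.3, 45.4 and 42.7 CPM in Pdx1 siRNA IP RNA and 212, 224 and 217 CPM in NT IP RNA. Its fall was 2.96-fold in total RNA and 4.97-fold in IP RNA. Top2a, the topoisomerase that untangles sister chromatids, was at −1.54 and −2.12.

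The Pdx1 siRNA libraries shared an order across members. Pdx1 siRNA total replicate 3 was the lowest of its group at 47 of 54 genes and replicate 1 the highest at 36; in IP RNA, Pdx1 siRNA replicate 3 was the lowest at 42 and replicate 1 the highest at 36. Members are therefore not independent of each other within a library. The coefficient of variation of the median member was 11.3% in Pdx1 siRNA total RNA and 4.2% in NT total RNA, and 11.3% in Pdx1 siRNA IP RNA and 4.0% in NT IP RNA. Leaving out any of the 12 libraries kept all 54 called lower in the comparison it belonged to.

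The fall was deeper in IP RNA than in total RNA at most members, but few of these differences passed the test. The difference of the siRNA effects, IP minus total, was below 0 at 52 of 54 members, with a median of −0.46, against 48.0% of all genes and a median of 0.01. Those above 0 were Cenpa (0.03) and Pttg1 (0.04). edgeR called 3 of 54 members lower and 0 higher, where 0.0554% of all genes were called lower and 0.174% higher. Its unadjusted p was under 0.05 at 41 of the 54 members, all below 0. Among all 12643 genes it was under 0.05 at 2155, in either direction. The 3 are Bub1 (adjusted p = 0.0461, −0.85 with an SE of 0.16 on the log2 scale), Melk (adjusted p = 0.0264, −0.71 with an SE of 0.12 on the log2 scale) and Mki67 (adjusted p = 0.0399, −0.75 with an SE of 0.13 on the log2 scale). The next 6 were Nuf2 (−0.51), Ttk (−0.79), Racgap1 (−0.53), Nusap1 (−0.77), Bub1b (−0.62) and Ect2 (−0.57), each at an adjusted p of 0.0564. The calls depended on single libraries. They number 0 without NT total replicate 1 or 3, NT IP replicate 1 or 2, Pdx1 siRNA total replicate 2 or Pdx1 siRNA IP replicate 3. With the copy split as a term the NT IP side is replicate 3 alone, and the median difference of the members was −0.457. That median does not show that the 3 calls hold in this fit. The calls number 17 without NT IP replicate 3, 15 without Pdx1 siRNA total replicate 1, 5 without Pdx1 siRNA IP replicate 2, and 24 by the DESeq2 Wald test. Over all 12643 genes the difference gave 29 calls in the main analysis, in either direction. That count became 571, 383, 66 and 327 in the settings just named, in the same order. It lay between 4 and 15 where leaving out a library gave 0 member calls. The shifts were thus not confined to members.

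**Figure D3:**
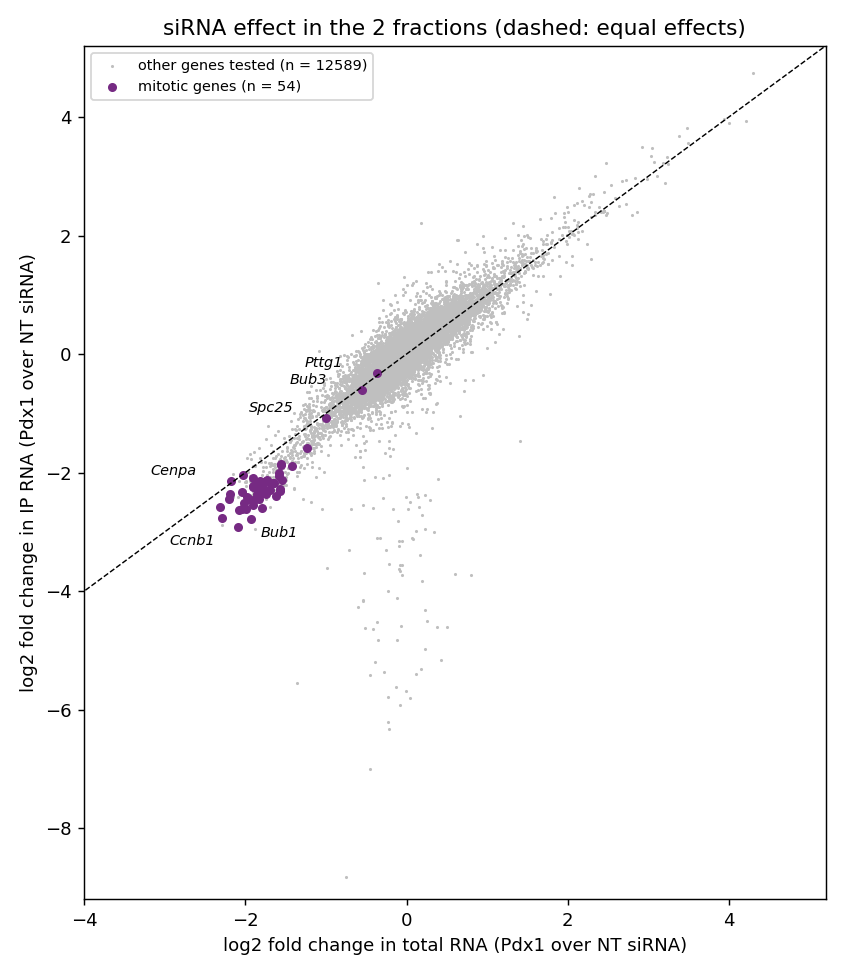
Log2 fold change in IP RNA (vertical) against total RNA (horizontal), Pdx1 siRNA over NT siRNA, for the 54 mitotic genes (purple) and the other 12589 genes tested (grey), with a dashed line of equal effects. The mitotic genes cluster at the low end of the horizontal axis, mostly under the line, and Pttg1, Bub3, Spc25 and Cenpa lie close to it.

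In IP RNA relative to total RNA the 54 genes did not behave as a unit. With Pdx1 siRNA, 6 were called higher and 38 lower in IP RNA (36.3% and 38.7% of all genes), with a median of −0.55. With the copy split as a term, 1 was called higher and 33 lower. That fit set all total RNA libraries on the side of NT IP replicates 1 and 2, which no label records. With NT siRNA, 15 were called higher and 22 lower (33.8% and 35.9% of all genes), with a median of −0.13. These comparisons share their libraries with the siRNA effects above. Cdkn3 was the highest in IP RNA with each siRNA, at 0.73 (Pdx1) and 1.19 (NT), and Pttg1 was at 0.72 and 0.68. Cenpf was the lowest with each, at −1.98 and −1.66. Cenpf had 4.49, 4.90 and 4.18 CPM in Pdx1 siRNA IP RNA, against 18.5, 19.5 and 15.8 CPM in Pdx1 siRNA total RNA. It had 21.3, 22.1 and 20.2 CPM in NT IP RNA, against 62.03, 72.3 and 66.3 CPM in NT total RNA. All 9 kinesins were called lower in IP RNA with Pdx1 siRNA, and 8 of them with NT.

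The members' IP to total ratios ran with transcript length, which spanned 917 to 11130 bases. Across the 54 genes Spearman's rho between length and the ratio was −0.74 with Pdx1 siRNA and −0.74 with NT siRNA, and across 12524 genes with a length it was −0.60 and −0.63. These describe genes that share the same libraries, and length was taken from GENCODE transcripts. Among all genes of any length, 36.3% were called higher and 38.7% lower with Pdx1 siRNA, and 33.8% and 35.9% with NT. Calls were not counted among other genes of like length. The 10 shortest members (up to 1793 bases) had a median log2 ratio of 0.20 with Pdx1 siRNA, 5 called higher and 1 lower, and 0.48 with NT siRNA, 9 called higher and 0 lower. The 10 longest (4819 bases or more) had a median of −1.35 with Pdx1 siRNA, all 10 called lower, and −0.99 with NT siRNA, 9 called lower. Mki67 is the exception among the long ones in NT cells, at −0.12 (SE 0.09, adjusted p = 0.243, edgeR).

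**Figure D4:**
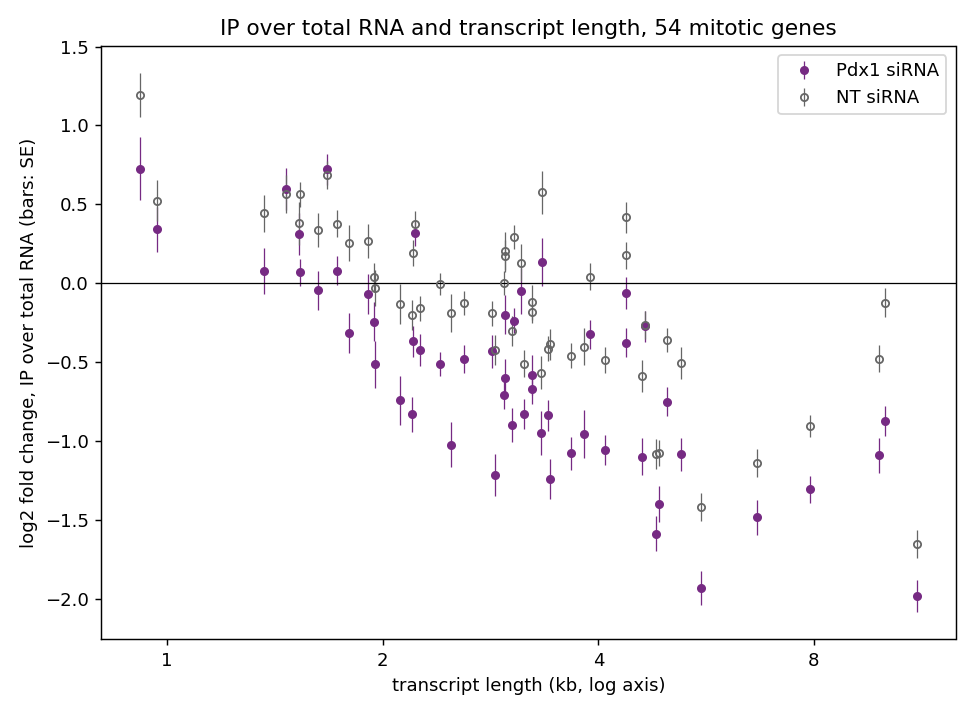
Log2 fold change of IP over total RNA (vertical, bars of the SE) against transcript length in kb (log axis) for the 54 genes, with Pdx1 siRNA (filled) and NT siRNA (open). Short transcripts lie above or near 0 and long ones below it, and the filled point lies below the open point of the same gene at 52 of 54 genes.

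Other genes of the pathway, listed beside the members, fell less evenly. Of 129 measured (130 listed), 111 were called lower and 1 higher in total RNA, and 110 lower and 2 higher in IP RNA. Among all genes 29.2% were called lower and 23.8% higher in total RNA, and 30.4% lower and 29.2% higher in IP RNA. Of 38 other kinetochore and centromere genes 37 fell in total RNA (median −1.49), among them the checkpoint gene Kntc1 (−1.71) and the Mis12 complex gene Pmf1 (−1.83). The other kinetochore gene was Zwint, at 0.03 (adjusted p = 0.804, edgeR) in total RNA and −0.20 (adjusted p = 0.0499) in IP RNA. A copy, Gm8099, matches 27.2% of its transcript. Zwint had 76.5, 76.9 and 66.4 CPM in Pdx1 siRNA IP RNA and 86.03, 90.4 and 76.3 CPM in NT IP RNA, where replicate 3 is the lowest, so its IP value is uncertain. Of 28 other spindle, centrosome and cytokinesis genes 23 fell (median −1.56), including Spag5 (−1.92), Dlgap5 (−1.66) and Arhgap11a (−1.42). The transport motor genes in that list, Kif3a, Kifap3, Kif5b and Kif1b, ranged from −0.03 to 0.12 in total RNA and were not called. In IP RNA Kif3a (−0.38, adjusted p = 0.000427, edgeR) and Kifap3 (−0.24, adjusted p = 0.00728) were called lower, while Kif5b was at −0.19 and Kif1b at −0.17 without a call. Condensin and cohesin genes fell at 16 of 17 (median −0.66), with the condensin genes Ncapg (−1.63; 20.8% of its exon sequence overlaps Lcorl on the opposite strand), Ncapd2 (−1.63) and Smc2 (−1.49) among them. Of the anaphase promoting complex genes, 12 of 18 were lower, with a median of −0.38. Its inhibitor gene Fbxo5 was at −1.58 and its catalytic subunit gene Anapc11 at −0.98. Anapc15 was at −1.17, and 58.8% of its transcript overlaps Tomt on the opposite strand.

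Among 28 genes listed as regulators of entry into mitosis 23 fell in total RNA and 1 rose (median −0.51). The list also holds transcription factor genes, such as Lin9 of the MuvB complex and Nfya of NF-Y. Cyclin F gene Ccnf was at −1.41, and Pkmyt1, encoding a kinase that restrains Cdk1, at −0.94. Ccng1 (chr11:40748552-40755309), the cyclin G1 gene and a known p53 target, rose 3.22-fold in total RNA and 3.75-fold in IP RNA. It had 257, 195 and 208 CPM in Pdx1 siRNA total RNA, against 67.2, 61.4 and 75.8 CPM in NT total RNA, with no overlap. It was the sole pathway gene called higher in total RNA, and in IP RNA Psrc1 was also called higher (0.56, adjusted p = 9.88e-05, edgeR; 0.17, adjusted p = 0.121, in total RNA).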

How the data were processed

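The authors deposited a table of raw counts for each of 12 libraries, whole reads per RefSeq transcript. The submitters' processing notes list TopHat2, featureCounts and mm10. For versions, strand and reads with several matches the entry is: not given in the sources used here. Of 17133 transcripts, 16838 were matched to symbols through RefSeq (GRCm38.p6, the assembly of mm10). The 295 without a symbol, 0.58% to 0.83% of counts, were dropped. For a gene with several transcripts the one with most counts was kept, giving 12643 genes.

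Genes were tested with edgeR 4.0.16 (R 4.3.3) in a quasi-likelihood fit of all libraries with a mean per group and TMM scaling; the default filter removed 0 genes. Benjamini-Hochberg adjustment covered every gene; calls needed an adjusted p below 0.05. An SE is the size of the fold change (log2) over the root of F. Levels are CPM computed on TMM-scaled library sizes. The fit was first tested on simulated counts.

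Copies were found with minimap2 2.31 on GENCODE M21 transcripts (at least 100 bases at 95% identity outside the own locus). Lengths come from the same transcripts. Figures used Python 3.11.15.

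The members, gene lists, the copy split and the rules were chosen with earlier results of these data known. Values in every library are given for the member of each role with the smallest p in total RNA and the lowest log2 fold change in IP RNA, members called for the difference of effects, and Foxm1; Bub3, Pttg1, Spc25 and Cenpf were added after their values were seen. Of each list of other pathway genes, up to 3 with the smallest p and up to 2 called higher are named, except a gene that is not reported here; Zwint, Psrc1 and the transport motors were added after seeing values. Alternatives were RLE and upper-quartile scaling, DESeq2 1.42.0, no filter, a filter of 1 CPM in 3 libraries, a replicate block, summed transcripts, the compared libraries only, Ins1 and Ins2 left out, the copy split, and each library left out. Intervals were not computed; counting error is a lower limit of the true error, since reads carry no molecular identifiers.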

Additional observations from a re-analysis of the deposited data

Results flagged for a closer look

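The siRNA effect differed between IP RNA and total RNA, by the edgeR test of the difference itself, at 3 of the 54 genes. The difference, IP minus total on the log2 scale, was -0.85 at Bub1, -0.71 at Melk and -0.75 at Mki67. Over 22 alternatives it ranged from -1.04 to -0.75 at Bub1 (adjusted p from 0.000492 to 0.209), from -0.84 to -0.66 at Melk (3.99e-05 to 0.176) and from -0.88 to -0.69 at Mki67 (4e-05 to 0.236). It was below 0 in each of them, and missed the threshold in 9 at Bub1, 7 at Melk and 9 at Mki67.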

How the results depend on the processing

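All 54 genes were called lower in total RNA under 16 alternatives and in IP RNA under 17, with single-gene log2 fold changes from -2.61 to -0.30 and from -3.10 to -0.24 and adjusted p-values of at most 0.0366 and 0.039. Leaving out a library put the median between -1.88 and -1.75 in total RNA and between -2.32 and -2.18 in IP RNA. Over all genes, 4914 were called in IP RNA among the libraries on the same side of the copy split and 5212 with the split as a term in all libraries, against 7542 in the main analysis; the cause was not tested. The difference of effects depended on the setting: the cause was not tested. Its members called lower, 3 in the main analysis, numbered 7 with RLE scaling, 8 with upper-quartile scaling, 24 with DESeq2, 10 without Ins1 and Ins2, and 0 to 17 when a library was left out. Over all genes its calls, 29 in the main analysis, numbered 52 with upper-quartile scaling, 327 with DESeq2, 54 without Ins1 and Ins2, and 4 to 571 when a library was left out. With the copy split as a term its NT IP side is replicate 3 alone, and the median member was at -0.457. That median does not show that the 3 calls of the main analysis hold in this fit. Replicate numbers were not shown to pair the libraries: correlations of same-numbered libraries' deviations ran from -0.05 to 0.45 between the total RNA groups and from -0.00 to 0.12 between the IP groups, with 4 of 6 libraries in each correlating best with their own number. Between IP and total RNA they ran from -0.04 to 0.49 with Pdx1 siRNA (3 of 6 best) and from 0.03 to 0.20 with NT (5 of 6 best), a hint from the data and not the design. With the replicate block the difference gave 373 calls over all genes, 20 of them members, and the siRNA effects again called all 54 lower. With the copy split as a term 1 member was called higher in IP than in total RNA with Pdx1 siRNA, against 6. With a library left out, the median member of IP against total RNA lay between -0.136 and -0.062 with NT siRNA. The lowest member had 38 to 342 counts in a library, and the largest SE was 0.17 in total RNA and 0.16 in IP RNA, both at Cdkn3.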

Other observations

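Spc25 stood apart from the other members by its level. Its 3 RefSeq transcripts held 7804, 7654 and 7142 counts in Pdx1 siRNA total replicate 1, against 16362, 15854 and 14642 counts in NT total replicate 1. These rows share reads and are not independent. The neighbouring gene is G6pc2 (chr2:69211073-69227993), a glucose-6-phosphatase gene of beta cells, which starts 4859 bases beyond Spc25. G6pc2 averaged 2348 CPM in Pdx1 siRNA total RNA and 2782 CPM in NT total RNA, at -0.24 on the log2 scale (adjusted p = 0.053, edgeR). Whether reads of the neighbour enter the Spc25 counts was not tested.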
